A study of Mus musculus with 4 samples.

Results

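*Atp1b1*, *Atp1b2* and *Atp1b3* encode the beta subunits of the sodium-potassium ATPase, and their transcripts were measured in whole lenses of mice with a hyperactive PDGFRβ and of control mice. The 3 genes were chosen by gene name from a table of 56748 genes, and all 3 passed the filter on low values that left 15997 genes for testing. The mutant mice carried *Fsp1-cre;Pdgfrb*+/D849V, in which Cre driven by the *Fsp1* (*S100a4*) promoter switches on a D849V allele knocked into the endogenous *Pdgfrb* locus. The control libraries are labelled *Fsp1-cre;Pdgfrb*+/+, and the study's methods state that the control pools also held lenses of *Pdgfrb*+/+ and *Pdgfrb*+/D849V mice without Cre. The line was bred into FVB/N and carried a tdTomato reporter, and neither the Cre nor the *Pdgfrb* allele is restricted to the lens. The mice were 10 to 12 days old. The study describes robust Cre reporter activity in the lens epithelium, and cataract, at later ages. It states that the reporter alone does not show the mutant receptor to be expressed, and assumes this expression once Cre is on. Each group had 2 libraries, each made from lenses pooled over several mice, and the spread between the libraries of a group is therefore that between pools.

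The sodium-potassium ATPase uses ATP to move sodium out of the cell and potassium in. Its catalytic alpha subunit needs a glycosylated beta subunit to fold, leave the endoplasmic reticulum and reach the cell surface, and a small FXYD protein often adjusts its ion affinity. The lens has no blood supply, and its pump activity, highest in the epithelium and at the equator, drives the circulation of ions and water that keeps the fibre cells clear. Loss of the balance of sodium and potassium is a known feature of cataract.

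The deposited values are FPKM, fragments scaled by gene length and by a size factor for each library, which allow genes to be set side by side. Recovered as whole reads, the libraries held between 18561682 and 18878768 reads, of which crystallin genes took 58.6% to 62.9%. Lens markers were present throughout, with *Foxe3*, a transcription factor of the lens epithelium, at 103 to 122 FPKM and *Cryba1*, a fibre cell crystallin, at 36302 to 47631 FPKM, although *Lim2*, a fibre membrane protein, was listed at 0 in all libraries. Markers of retina and photoreceptors stood apart in 1 library of each group, with summed FPKM of 2.27 in mutant replicate 2 and 1.06 in control replicate 1 against 0.587 and 0.544 in mutant replicate 1 and control replicate 2. These pairs of libraries also parted by *Xist*, which is expressed from the inactive X chromosome. It was at 13.1 and 15.6 FPKM in the former pair and 7.62 and 5.56 FPKM in the latter. The sex composition of the pools was read from this transcript alone. The summed FPKM of macrophage markers was higher in both mutant libraries (1.75 and 1.84) than in both control libraries (0.788 and 0.512). That of ciliary body and pigmented epithelium markers was so too (15.0 and 15.7 against 12.1 and 10.5). Most of this sum was *Optc* (11.5 and 12.1 against 9.67 and 7.90 FPKM). Of the 5 markers of this list tested, 4 were higher in mean and 1 was lower. The lower one was *Pmel*, at 0.245 and 0.134 FPKM in the mutant and 0.269 and 0.544 FPKM in the control libraries. In limma's test, 3 of 3 macrophage markers tested and 3 of 5 ciliary markers tested were higher at an unadjusted p under 0.05. Of all genes tested, 3.39% were higher at this threshold. The 3 macrophage markers had 1 to 19 reads per library, and 4 others of that list were not tested. *C1qb* passed the filter through its mutant values (0.309 and 0.376 FPKM), while its control values were 0.0945 and 0.0499 FPKM. By limma voom on recovered reads, the unadjusted p of these 3 were 0.059 to 0.092. None of the markers of these 2 lists had an adjusted p under 0.05.

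*Atp1b3* was the main beta subunit transcript of the lens. It lies on chromosome 9 from 96214708 to 96246495 on the minus strand (ENSMUSG00000032412, mm39). Its level was 46.3 and 45.7 FPKM in mutant replicates 1 and 2, and 47.6 and 41.6 FPKM in control replicates 1 and 2. The control libraries held the highest and the lowest of these values, and both mutant libraries lay between them. These levels rest on 1972, 2137, 2213 and 1834 reads in the same order, and *Atp1b3* ranked between the 377th and the 424th gene of a library.

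*Atp1b1*, which encodes the beta subunit found in most tissues, lies on chromosome 1 from 164264678 to 164285924 on the minus strand (ENSMUSG00000026576). It measured 2.93 and 2.55 FPKM in mutant replicates 1 and 2, and 2.85 and 3.19 FPKM in control replicates 1 and 2, from 154 to 181 reads per library. The groups overlapped, since mutant replicate 1 lay above control replicate 1. *Atp1b2*, which encodes the beta subunit known from glia, neurons and photoreceptors and also called adhesion molecule on glia, lies on chromosome 11 from 69490562 to 69496768 on the minus strand (ENSMUSG00000041329). It measured 0.233 and 0.275 FPKM in mutant replicates 1 and 2, and 0.680 and 0.279 FPKM in control replicates 1 and 2. Control replicate 1 stood above the other libraries, which lay close together.

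**Figure D1:**
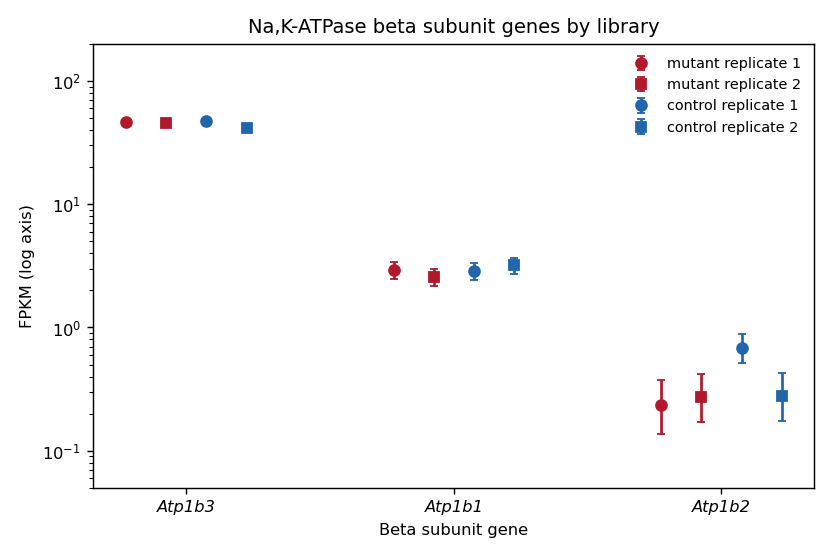
FPKM of *Atp1b3*, *Atp1b1* and *Atp1b2* (log axis) in each of the 4 libraries, mutant in red and control in blue, with circles for replicate 1 and squares for replicate 2. Bars are exact 95% Poisson intervals of the reads and cover counting error only. *Atp1b3* sat between 41.6 and 47.6 FPKM in every library, and *Atp1b2* was below 1 FPKM in all of them.

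The sequences before the start sites are shown because these genes differed so widely in level within every library. The RefSeq promoter table (GRCm38.p6) held 2 of the 3 genes, *Atp1b1* and *Atp1b3*, and not *Atp1b2*. The windows hold the 100 bases before the start site of *Atp1b1* (chr1:164458356-164458455, minus strand) and before the upstream start site of *Atp1b3* (chr9:96364432-96364531, minus strand), written 5′ to 3′ along the gene with matches to the searched motifs in capitals.
Atp1b1: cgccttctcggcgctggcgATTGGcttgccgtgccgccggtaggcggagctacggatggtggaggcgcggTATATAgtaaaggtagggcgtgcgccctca
Atp1b3: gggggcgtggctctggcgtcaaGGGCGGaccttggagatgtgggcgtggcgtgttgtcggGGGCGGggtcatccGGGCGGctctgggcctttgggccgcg
On both strands, the searched motifs were TATATA and TATAAA for a TATA box, GGGCGG for a GC box and CCAAT. The *Atp1b1* window held TATATA from -30 to -25, which reads alike on both strands, and CCAAT on the opposite strand from -81 to -77. The *Atp1b3* window held 3 matches to GGGCGG, and its second annotated start site had no match to any motif searched. Among the 32817 windows of this kind, 2.20% held TATATA, 5.57% held TATAAA, 24.7% held GGGCGG and 18.9% held CCAAT. The windows had 13 CG dinucleotides for *Atp1b1* and 11 for *Atp1b3*, where the median window had 3. These matches describe the sequence alone, and no binding at these promoters was measured.

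The order of the beta subunit transcripts was the same in all 4 libraries, with *Atp1b3* above *Atp1b1* and *Atp1b1* above *Atp1b2*. *Atp1b3* exceeded *Atp1b1* by 15.8 and 17.9 times in mutant replicates 1 and 2 and by 16.7 and 13.1 times in control replicates 1 and 2, on FPKM. The ratio was 16.8 ± 1.48 (SD, n = 2) in mutant and 14.9 ± 2.56 (SD, n = 2) in control lenses, and the difference between these means was smaller than the control SD. *Atp1b1* exceeded *Atp1b2* by between 4.20 times in control replicate 1 and 12.6 times in mutant replicate 1. An exact sign permutation test over the 4 libraries gave a two-sided p of 0.125 for each of the 3 pairs of genes, which is the smallest that 4 libraries allow. The ranges of the 3 genes over the 4 libraries did not overlap.

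**Figure D2:**
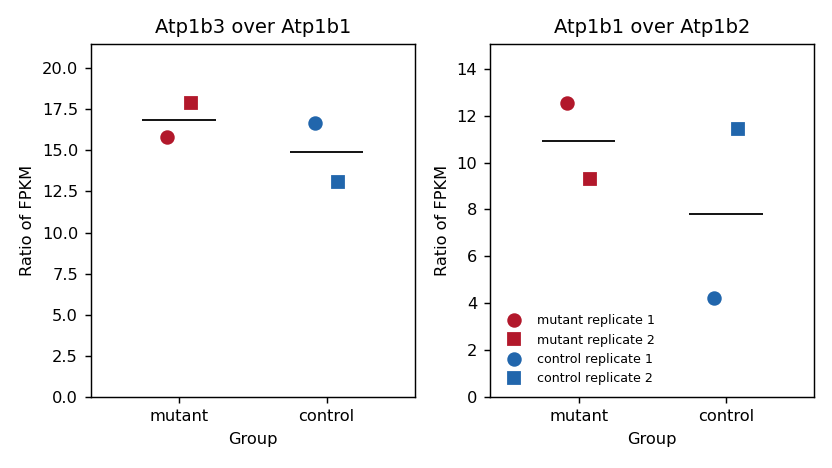
Ratio of FPKM of *Atp1b3* to *Atp1b1* (left) and of *Atp1b1* to *Atp1b2* (right) in each library, by group, with a line at the mean of each group. The ratios of the groups overlap in both panels, and control replicate 1 has the lowest ratio of *Atp1b1* to *Atp1b2*, at 4.20.

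Of the summed FPKM of the 3 genes, *Atp1b3* made up 93.6% and 94.2% in mutant replicates 1 and 2 and 93.1% and 92.3% in control replicates 1 and 2. The sum itself lay between 45.1 and 51.2 FPKM. The *Atp1b3* share was 93.9% ± 0.402 (SD, n = 2) in mutant and 92.7% ± 0.549 (SD, n = 2) in control lenses. The difference of 1.18 percentage points gave a two-sided exact permutation p of 0.33, the smallest that 2 libraries against 2 allow. *Atp1b1* made up 5.59% ± 0.469 in mutant and 6.32% ± 1.05 in control lenses, and *Atp1b2* made up 0.519% ± 0.0672 and 0.973% ± 0.502 (SD, n = 2 each). Their exact permutation p were 0.667 and 0.33. The mutant share minus the control share was -0.727 percentage points for *Atp1b1* and 0.016 without control replicate 2, and -0.454 for *Atp1b2* and -0.099 without control replicate 1. With the length of the longest protein-coding transcript in place of that in the deposited table, a choice made after the values were seen, *Atp1b3* made up between 92.2% and 94.1% in the 4 libraries.

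None of the 3 beta subunit genes differed between mutant and control lenses in limma's moderated test on log2(FPKM + 0.1) at an adjusted p under 0.05, a threshold that 0.0375% of the 15997 genes passed. *Atp1b3* had 46.0 ± 0.433 FPKM (SD, n = 2) in mutant and 44.6 ± 4.24 FPKM (SD, n = 2) in control lenses. Its log2 fold change, mutant over control, was 0.05 (standard error, SE, 0.10, limma adjusted p = 0.936). The 95% interval of its fold change ran from 0.864 to 1.23. The level of the main beta subunit transcript thus differed by less than the spread of the control libraries, and without control replicate 2 its log2 fold change had the opposite sign, -0.051.

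*Atp1b1* had 2.74 ± 0.267 FPKM in mutant and 3.02 ± 0.235 FPKM in control lenses (SD, n = 2 each). Its log2 fold change was -0.14 (SE 0.14, limma adjusted p = 0.837), with a 95% interval of the fold change from 0.714 to 1.16. *Atp1b2* had 0.254 ± 0.0294 FPKM in mutant and 0.479 ± 0.283 FPKM in control lenses (SD, n = 2 each). Its log2 fold change was -0.62 (SE 0.42, limma adjusted p = 0.811), and the interval, from 0.307 to 1.38, was the widest of the 3 genes. None of the 3 genes reached an unadjusted p under 0.05, as did 3.39% of all genes tested in the direction of higher and 2.92% in that of lower in mutant lenses. *Atp1b2* was the only one of the 3 whose groups did not overlap, a separation that 36.6% of all genes tested had. Whether a transcript changes through fewer cells of a type or through less RNA per cell cannot be told apart in whole lenses.

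**Figure D3:**
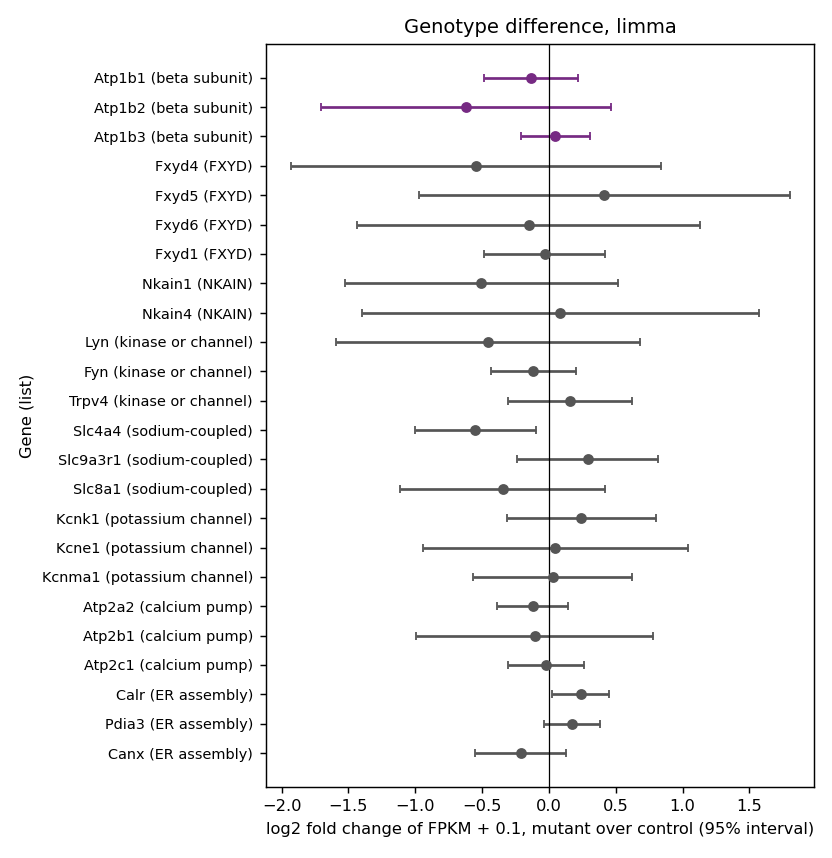
Log2 fold change of FPKM + 0.1, mutant over control, with 95% intervals from limma, for the 3 beta subunit genes (purple), the tested FXYD genes and up to 3 genes with the smallest p of each other list of the pump and ion transport (grey). The intervals of all 3 beta subunit genes include 0, and that of *Atp1b3* is the narrowest of the 3.

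The value of *Atp1b2* turned on control replicate 1. Its reads were 17 and 22 in mutant replicates 1 and 2 and 54 and 21 in control replicates 1 and 2. The exact 95% Poisson interval was 40.6 to 70.5 reads in control replicate 1 and 13.8 to 33.3 reads in mutant replicate 2, so that these libraries differed beyond counting error. Mutant replicate 2 and control replicate 2 did not, although their order decides that the groups do not overlap. Without control replicate 1 the log2 fold change of *Atp1b2* was -0.10, and without control replicate 2 it was -1.14.

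Control replicate 1 also had the highest summed FPKM of the glial, endothelial and red cell marker lists. The ciliary and macrophage sums were instead highest in mutant replicate 2, at 15.7 and 1.84 FPKM. The 6 glial markers, of which *Sox10* was listed at 0 in all libraries, summed to 3.86 and 4.58 FPKM in mutant replicates 1 and 2 and to 4.78 and 4.01 FPKM in control replicates 1 and 2. The largest part of this sum was *Gfap*, an intermediate filament gene of glia that the lens epithelium is also known to express, at 2.97 to 3.89 FPKM. *Aqp4*, a water channel gene of glia singled out after its values were seen, was at 1.06 FPKM in control replicate 1 and at 0.459 to 0.688 FPKM in the other libraries. The 6 endothelial markers, all detected in every library, summed to 3.11 and 2.34 FPKM in mutant replicates 1 and 2 and to 3.84 and 3.56 FPKM in control replicates 1 and 2. The 5 red cell markers, led by the globin gene *Hba-a1* and with *Hba-a2* listed at 0 throughout, summed to 25.2, 17.2, 34.9 and 21.6 FPKM in the same order.

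The retina and photoreceptor markers summed to 1.06 FPKM in control replicate 1, the second highest of the sums. Their highest sum, 2.27 FPKM, was in mutant replicate 2, where *Atp1b2* was at 0.275 FPKM. Of the 9 markers, 6 were higher in control replicate 1 than in mutant replicate 1 and control replicate 2, and all 6 were higher still in mutant replicate 2. *Rcvrn*, which encodes the photoreceptor protein recoverin and was the highest of them on average, was at 0 in control replicate 1 and at 0.162 to 0.344 FPKM in the other libraries. Of these 9 markers, 4 were at 0 in mutant replicate 1 and in control replicate 2, and 1 in each of the other libraries. The part of these tissues in the level of *Atp1b2* was not tested.

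**Figure D4:**
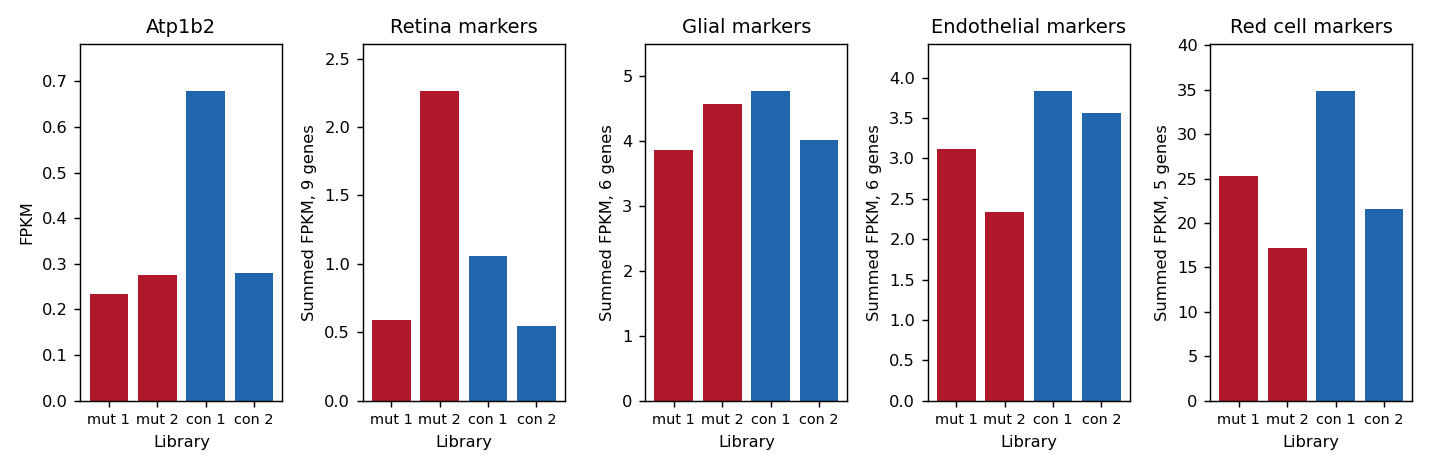
FPKM of *Atp1b2* and summed FPKM of 4 marker lists in mutant replicates 1 and 2 (mut, red) and control replicates 1 and 2 (con, blue). *Atp1b2* and the glial, endothelial and red cell sums are highest in control replicate 1, whereas the retina sum is highest in mutant replicate 2, at 2.27 FPKM.

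The counting of reads touches *Atp1b1* and *Atp1b3* in different ways. The 3′ end of *Atp1b1* overlaps that of *Nme7*, on the opposite strand, by 617 bases, and 20.2% of the words of 31 bases in its longest transcript (GENCODE M21, GRCm38) also occur in *Nme7*. Reads there may have been lost or given to either gene, because the strand setting of the counting is not given in the sources used here. *Nme7* had 44 to 68 reads per library, fewer than the 154 to 181 of *Atp1b1*. For *Atp1b3*, 19.4% of the words occur in *Gm1848*, a processed pseudogene on chromosome X that had 0 to 2 reads per library. The longest protein-coding transcript of *Atp1b2* shared none of its words with another gene.

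The FXYD proteins are small membrane proteins that bind the pump and tune its activity. *Fxyd1*, or phospholemman, was the main one, with 11.6 and 8.50 FPKM in mutant replicates 1 and 2 and 10.9 and 9.41 FPKM in control replicates 1 and 2. Its groups overlapped, and its log2 fold change was -0.03 (SE 0.18, limma adjusted p = 0.983). *Fxyd4*, *Fxyd5* and *Fxyd6* each had at most 15 reads in a library, with log2 fold changes of -0.55, 0.42 and -0.15 and limma adjusted p from 0.834 to 0.961. *Fxyd2* was under the filter with at most 8 reads, and *Fxyd3* and *Fxyd7* were listed at 0.

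The relatives of the beta subunits were at or near 0. *Atp1b4*, which in mammals encodes a muscle protein of the inner nuclear membrane, and *Atp4b*, which encodes the beta subunit of the gastric proton pump, were listed at 0 in all libraries. The catalytic genes of the proton-potassium pumps, *Atp4a* and *Atp12a*, had at most 2 reads in a library. Among the NKAIN genes, whose proteins bind the beta subunit of *Atp1b1*, *Nkain1* had 5 reads in mutant replicate 1 and 13 or 14 in each other library. *Nkain1* had a log2 fold change of -0.51 and *Nkain4* of 0.09 (limma adjusted p = 0.811 and 0.985).

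Over the 8 lists of other genes of the pump and of the ion transport around it, 38 of 64 genes were tested. The mutant mean was the higher for 17 and the lower for 21, and the median of their log2 fold changes was -0.02 beside 0.0041 over all genes tested. No gene of these lists passed an adjusted p of 0.05 by limma, as did 0.0375% of all genes tested. An unadjusted p under 0.05 was found for 1 higher gene, *Calr*, and for 1 lower gene, *Slc4a4*. Of all genes tested, 3.39% were higher and 2.92% lower at this threshold. The libraries of the groups did not overlap for 14 of the 38 genes, where 36.6% of all genes tested were separated in this way.

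Among kinases and channels that act on the pump, 9 of 11 genes were tested, 3 higher and 6 lower in mean. The kinases *Fyn* and *Lyn*, of the Src family that can phosphorylate the pump, had log2 fold changes of -0.12 and -0.45 (limma adjusted p = 0.848 and 0.831). *Fyn* had 1.94 and 1.88 FPKM in mutant replicates 1 and 2 and 2.10 and 2.06 FPKM in control replicates 1 and 2, and *Lyn* had 8 to 22 reads per library. *Trpv4*, which encodes a cation channel that senses swelling in the lens epithelium, had a log2 fold change of 0.16 (limma adjusted p = 0.862).

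*Slc4a4* encodes a sodium-bicarbonate cotransporter that depends on the sodium gradient. It had 0.881 and 0.780 FPKM in mutant replicates 1 and 2 and 1.37 and 1.16 FPKM in control replicates 1 and 2. Both mutant libraries lay below both control libraries, and 36.6% of all genes tested had groups that did not overlap. Its log2 fold change was -0.55 (SE 0.18, limma adjusted p = 0.750). Of the other sodium-coupled genes, the sodium-calcium exchanger gene *Slc8a1* had a log2 fold change of -0.35 and *Slc9a3r1*, which encodes a scaffold for sodium-proton exchangers, one of 0.29 (limma adjusted p = 0.811 each). The list had 4 genes higher and 7 lower among the 11 tested.

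The endoplasmic reticulum list holds chaperones of the compartment where beta and alpha subunits are assembled. *Calr*, the chaperone calreticulin, had 81.4 and 78.9 FPKM in mutant replicates 1 and 2 and 67.0 and 69.1 FPKM in control replicates 1 and 2. Both mutant values lay above both control values, where 36.6% of all genes tested had groups that did not overlap. The log2 fold change of *Calr* was 0.24 (SE 0.083, limma adjusted p = 0.771). *Pdia3*, a disulphide isomerase, had a log2 fold change of 0.17, and *Canx*, the membrane chaperone calnexin, one of -0.21 (limma adjusted p = 0.809 and 0.811).

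Most potassium channel genes lay under the filter. Of 12 listed, 3 passed, and *Kcnk1*, *Kcne1* and *Kcnma1* had log2 fold changes of 0.24, 0.05 and 0.03 (limma adjusted p from 0.820 to 0.987). Of 8 calcium pump genes of the same P-type family, 3 passed. *Atp2a2*, the calcium pump of the endoplasmic reticulum, had 10.4 and 11.8 FPKM in mutant replicates 1 and 2 and 12.2 and 11.9 FPKM in control replicates 1 and 2, a log2 fold change of -0.12 (limma adjusted p = 0.811). *Atp2b1* and *Atp2c1* had log2 fold changes of -0.11 and -0.02 (limma adjusted p = 0.961 and 0.981).

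The genes most like each beta subunit gene in their pattern over the 4 libraries were taken from those with a mean of at least 10 FPKM, by the Euclidean distance between centred log2(FPKM + 0.1) values. For *Atp1b3*, these were *Dpy30*, *Nrep* and *Spg7*, at distances of 0.020, 0.027 and 0.049 among 1668 genes. For *Atp1b1*, they were *Gas6*, *Stoml2* and *Cap2*, at distances of 0.024, 0.043 and 0.053 among 1669 genes. For *Atp1b2*, the nearest were farther away, with *Gm14303*, *Gm1943* and *Atp5k* at distances of 0.378, 0.393 and 0.507, and each of these was highest in control replicate 1. With 4 libraries such likeness is a description only.

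**Figure D5:**
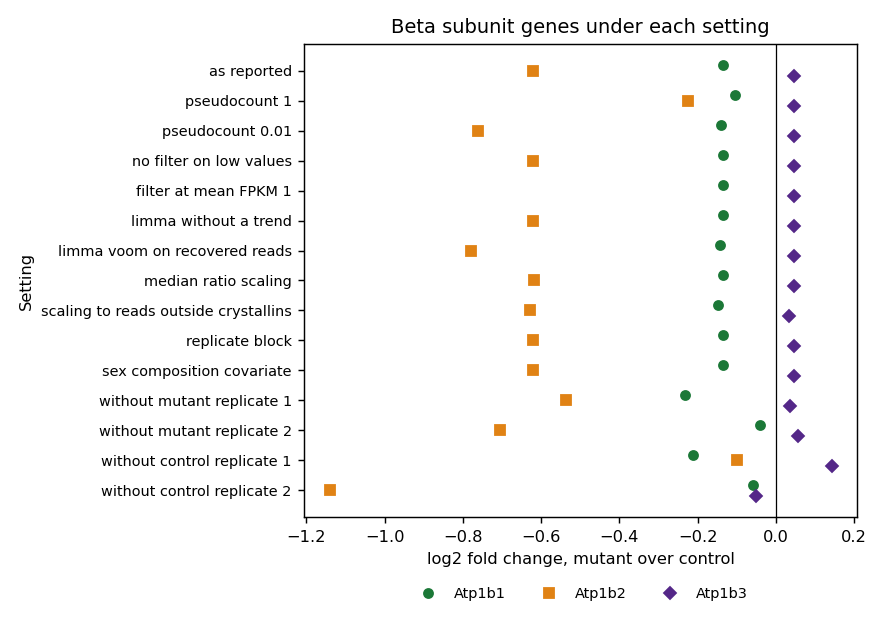
Log2 fold change, mutant over control, of *Atp1b1* (circles), *Atp1b2* (squares) and *Atp1b3* (diamonds) as reported and under each other setting. *Atp1b2* moves from -1.14 to -0.10 with the library left out, and *Atp1b3* lies on the lower side of 0 only without control replicate 2. *Atp1b2* has no value with the filter at a mean of 1 FPKM.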

How the data were processed

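The authors deposited FPKM for 56748 genes in 4 libraries, computed by their sequencing provider after alignment with HISAT2 and counting with featureCounts. The submitters' processing notes name mm39, and the authors' own tests used DESeq2. The deposited table holds 0 per-sample columns that were not used. FPKM multiplied by gene length were whole multiples of 1 step for 100% of values above 0 (tolerance 0.01 reads), which gave recovered reads. Taken over genes, the median of FPKM divided by the geometric mean over libraries was 1.01 in every library, so the deposited FPKM were already scaled by such factors. Log2(FPKM + 0.1) was fitted with limma 3.58.1 for genes whose FPKM averaged 0.1 or more (lmFit, eBayes with a trend, R 4.3.3), with Benjamini-Hochberg adjustment over all 15997 genes. Fold changes on this scale understate those of low genes, and p-values measure the spread between pools. Shares were compared with exact permutation tests (scipy 1.17.1), and the fits were tested on simulated data. Only genes with more reads than *Atp1b2* were changed in the simulation, which therefore does not tell how the fits do for *Atp1b2*. Genes were named by a rule: the members, FXYD genes and beta relatives above 0.1 FPKM, the 3 smallest p of each other list, the highest and the undetected markers of each list, and 3 genes of like pattern per member. *Fxyd2*, *Xist*, *Nme7*, *Gm1848*, *Aqp4*, *C1qb*, *Pmel*, the genes at 0 among the FXYD genes and relatives, *Atp4a* and *Atp12a* lie outside it. The members and lists were chosen with earlier results of these data known. The alpha subunit genes and a few genes of the lists are not reported here. *Rpe65*, a ciliary and pigmented epithelium marker, was at 0 in all libraries, where *Optc* led with 7.90 to 12.1 FPKM. Libraries of 18561682 to 18878768 reads give the counting intervals, which cover counting error only. Alternatives were other pseudocounts, filters and scalings, voom, a replicate block, a sex covariate and each library left out. The other marker lists were led by *Tek* (endothelium, 0.881 to 1.47 FPKM) and *C1qa* (macrophages, 0.261 to 1.02 FPKM).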

Additional observations from a re-analysis of the deposited data

How the results depend on the processing

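No beta subunit gene had an adjusted p under 0.05 in any of the settings tried, where the smallest was 0.717, for *Atp1b2*. *Atp1b1* and *Atp1b2* were lower in mutant lenses in all of them, and *Atp1b3* was higher except without control replicate 2 (log2 fold change -0.051). Leaving out each library gave log2 fold changes of -0.23 to -0.04 for *Atp1b1*, -1.14 to -0.10 for *Atp1b2* and -0.051 to 0.14 for *Atp1b3*, in limma fits where the lone library is assumed to vary like the others. Median ratio scaling changed no call of a beta subunit gene and left 6 genes, since the deposited values already carry it. A pseudocount of 1 brought the log2 fold change of *Atp1b2* to -0.22, a pseudocount of 0.01 to -0.76 and voom on recovered reads to -0.78. With the filter at a mean of 1 FPKM, *Atp1b2* was not tested. Without each library in turn, the share differences, mutant minus control, ran from -1.47 to 0.016 percentage points for *Atp1b1* (-1.47 without control replicate 1, 0.016 without control replicate 2), from -0.809 to -0.099 for *Atp1b2* (-0.809 without control replicate 2, -0.099 without control replicate 1) and from 0.793 to 1.57 for *Atp1b3*.

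The number of genes with an adjusted p under 0.05, 6 as reported, was 2 with a pseudocount of 1 or 0.01, with the filter at 1 FPKM and without a trend. It was 1 with no filter and with the sex composition as a covariate, 14 with voom, and 0 whichever library was left out (limma), where 735 to 1402 genes had an unadjusted p under 0.05. The count at an unadjusted p under 0.05 was 1009 as reported and 617 with the filter at 1 FPKM. With the replicate number as a replicate block, 3 genes had an adjusted p under 0.05, and no call of a beta subunit gene changed. Libraries of the same number did not deviate together (correlation of deviations -0.0051 over 15997 genes), so the numbers were not taken as pairs. With 2 libraries per group, and 17 to 54 reads on *Atp1b2*, small differences could not be detected.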
